A study of Homo sapiens with 12 samples.

Results

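The replication-dependent histone genes encode the H1, H2A, H2B, H3 and H4 proteins that package newly made DNA. They were taken as every gene whose array transcript matched a current RefSeq symbol from H1-1 to H1-5, or H2AC, H2BC, H3C or H4C followed by a number. Of the 68 RefSeq genes with such a symbol, 64 had a probe, with 73 of the 34127 probes between them. All 64 passed the filter on dim probes and belong to the 25748 genes tested. They were 5 H1, 15 H2A, 18 H2B, 12 H3 and 14 H4 genes, of which 53 lie in the large cluster on chromosome 6 (HIST1), 8 and 2 in the HIST2 and HIST3 clusters on chromosome 1, and H4C16 alone on chromosome 12. The genes were chosen by their names after the class had stood out in the measured difference between PIM1 and control cells, so that this difference is given with no test. H4C14, H3C14, H2AC18 and H2AC11 had no matched probe.

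Histone mRNAs of this kind are made mainly in S phase and do not usually carry a poly(A) tail. They end in a stem-loop that is bound by SLBP, while the coactivator NPAT drives their transcription at the histone clusters and the U7 snRNP cuts their 3′ end. In proliferating tumour cells such as PC-3 their level follows DNA synthesis closely, so that a sample with fewer cells in S phase and a sample with less histone mRNA per cell cannot be told apart in these data. The labelling kit primes from poly(A) tails, and how much of each histone mRNA carried a tail was not measured.

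PC-3 is an established human prostate adenocarcinoma cell line. Control cells carried the empty vector and PIM1 cells a pcDNA3.1 vector for the kinase PIM1, both as pools of stably transfected cells kept in G418, and td-Tomato was cotransfected into all of them as a fluorescent marker. WT and MM cells were the control pool with a transient transfection of wild-type or multi mutant NFATC1, a transcription factor whose PIM1 target sites are mutated in the MM form. PIM1 + WT and PIM1 + MM cells were the PIM1 pool with the same NFATC1 transfections. Each group had 2 samples, and it is not stated whether these came from separate cultures, so that the p-values measure only the spread between these samples. The methods place RNA extraction on the day after transfection, while another passage of the study names a later time, so that the time is not settled.

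RNA of control, WT and of PIM1 + WT cells carried the dye Cy3 and RNA of the other groups Cy5, on 6 arrays with no dye swap, so that a dye difference and the group cannot be told apart where a Cy3 sample is set against a Cy5 sample. Values are log2 intensities after quantile normalization, and a gene passed the test at a Benjamini-Hochberg adjusted p below 0.05 from limma, over all genes tested. Between 56.9% and 69.0% of the spots of a sample were well above background. The probe for PIM1 read 9.95 in control cells and 10.20 in PIM1 cells as group means, and in the cells with NFATC1 it was 9.93 in PIM1 + WT against 10.16 in WT cells, so that it did not separate the labelled groups. One of the 2 NFATC1 probes read 6.87 in control, 7.77 in WT and 11.29 in MM cells, and with stable PIM1 it read 7.97 under WT and 11.95 under MM NFATC1. The other read 8.29, 8.28 and 8.39 in control, WT and MM cells and 7.19 and 7.34 in PIM1 + WT and PIM1 + MM cells, so that it did not separate them. The paper reports real-time qPCR of the microarray samples as its own check of PIM1 and/or NFATC1 overexpression. The epithelial markers KRT8, KRT18 and EPCAM were well above background in all 12 samples and KLK3 in 0. The array that held the first replicate of control and of PIM1 cells stood apart. SLBP read 5.94 and 6.19 there and between 11.63 and 12.23 in the other 10 samples, and of the histone genes H2AC4, H2BC8, H3C13 and H4C15 were lower on it than in the other replicate of their group, with gaps from -2.89 to -0.82, and H2BC12 was higher by 0.60 and 0.82.

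The class medians of the histone genes over the samples are shown first, and single genes of a class could differ from them in direction. On log2 values from which the 12-sample mean of each gene was taken, the median of the 14 H4 genes was 0.43 and 0.42 in control cells and -0.42 and -0.50 in PIM1 cells. The median of the 18 H2B genes was 0.04 and 0.01 in control cells and 0.13 and 0.06 in PIM1 cells. The H4 medians thus separated these groups by far more than their replicates differed, and the H2B medians did not. After median centring the H2B median difference between PIM1 and control cells was -0.33. These samples led to the list and differ in dye, so that this is a description.

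**Figure D1:**
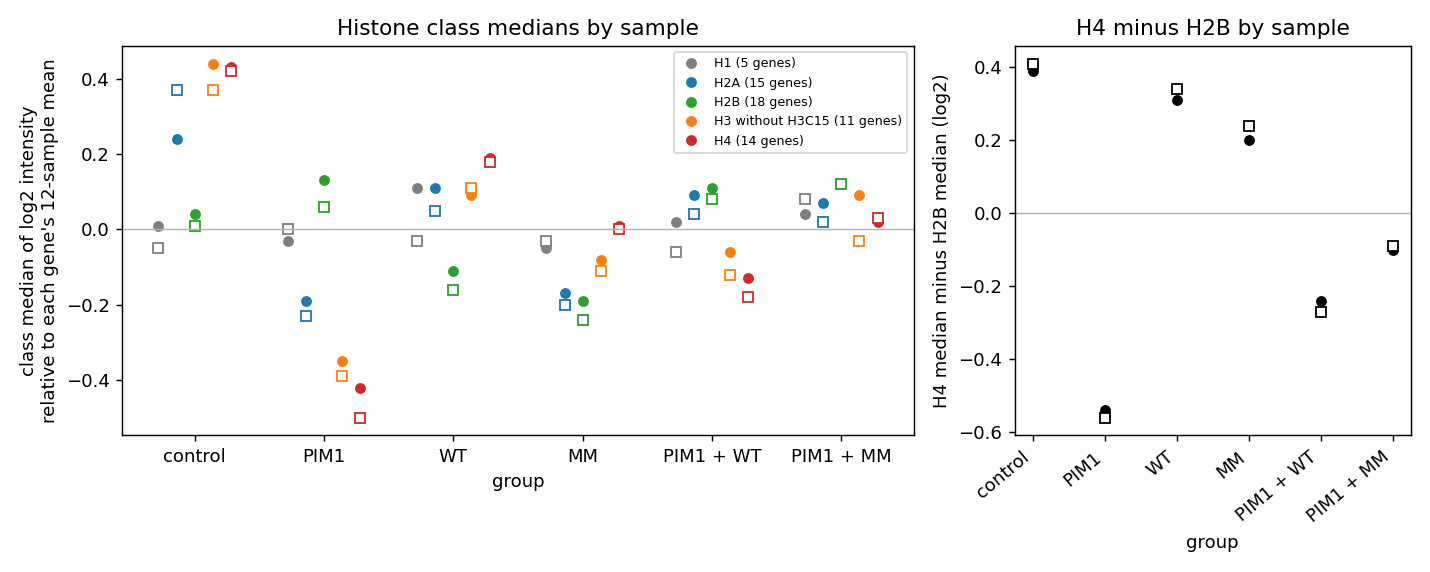
Left, class median of the log2 intensity after subtraction of the 12-sample mean of each gene (y) by group (x), with replicate 1 filled and replicate 2 open. Right, H4 median minus H2B median (log2) in each sample: the 6 samples without stable PIM1 lie between 0.20 and 0.41 and the 6 with it between -0.56 and -0.09.

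The difference between the H4 and the H2B medians within a sample is not moved by a shift that is common to all histone genes. It was 0.39 and 0.41 in control cells, 0.31 and 0.34 in WT cells and 0.20 and 0.24 in MM cells. With stable PIM1 it was -0.54 and -0.56 in PIM1 cells, -0.24 and -0.27 in PIM1 + WT cells and -0.10 and -0.09 in PIM1 + MM cells. Samples with and without stable PIM1 did not overlap, under either form of NFATC1 or with none. The groups with NFATC1 lay closer together than control and PIM1 cells did. These gaps are not alike in dye, since control was in Cy3 and PIM1 in Cy5. PIM1 + WT and WT were both in Cy3, and PIM1 + MM and MM both in Cy5. How much of the wider gap is a dye difference cannot be told. Control and PIM1 cells are the samples from which the histone genes were first singled out, and the measure was added with the class pattern known, so that it is given as a description.

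Between PIM1 and control cells, 45 of the 64 genes were below 0, against 48.0% of all genes tested, and 12 were at -1 or below, against 0.769% of all genes. None of the 64 was at 1 or above, against 0.540%. The median was -0.42 over the histone genes and 0.01 over all genes. These values led to the list and are given with no test. By class the median was 0.06 for H1, -0.51 for H2A, 0.15 for H2B, -0.76 for H3 and -0.80 for H4, and with each sample centred on its median in place of quantile normalization the H2B value turned to -0.33. The lowest were H3C15 at -2.87, H3C2 at -1.98, H4C5 at -1.91 and H2AC20 at -1.87. The highest was H2BC12 at 0.62, which was 0.51 without the array that stood apart, followed by H2BC14 at 0.47.

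H3C15 encodes the H3.2 form of histone H3 and lies in the HIST2 cluster. Its log2 intensity was 13.26 and 13.09 in control cells, 10.31 and 10.30 in PIM1 cells, 12.95 and 12.90 in WT cells and 11.93 and 11.86 in MM cells. It was 11.58 and 11.63 in PIM1 + WT cells and 11.93 and 12.01 in PIM1 + MM cells. Control and WT cells were the highest, PIM1 cells were the lowest by more than 1 log2 unit, and the other 3 groups lay between them, with MM and PIM1 + MM cells not separated beyond the spread of their replicates. Between PIM1 and control cells this was a 7.32-fold lower intensity, and between WT and MM cells it was 1.03 higher on the log2 scale. Both values set the gene apart beforehand and carry no test here.

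In the comparisons that did not set it apart, H3C15 fell by 1.32 in PIM1 + WT relative to WT cells (standard error 0.068, adjusted p = 4.03e-06). This was a 2.49-fold lower intensity, with both groups within Cy3. Between PIM1 + MM and MM cells, within Cy5, H3C15 differed by 0.08 (standard error 0.068, adjusted p = 0.509), by 0.01 and 0.14 in the replicates. The WT and MM samples also entered the WT minus MM difference that set the gene apart. Both stable PIM1 comparisons of H3C15 therefore draw on that difference in part and are given as a description. Between PIM1 + WT and PIM1 + MM cells it fell by 0.36 (adjusted p = 0.00699), which lost the call without PIM1 + WT replicate 1 (adjusted p = 0.0625) and after median centring, where the difference was -0.06. The interaction, the stable PIM1 difference under WT minus that under MM NFATC1, was -1.39 (standard error 0.0961, adjusted p = 0.00239), -1.37 and -1.41 in the replicates. It includes the WT minus MM difference that set the gene apart. After median centring the interaction was -1.54, and no gene in the whole table passed.

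**Figure D2:**
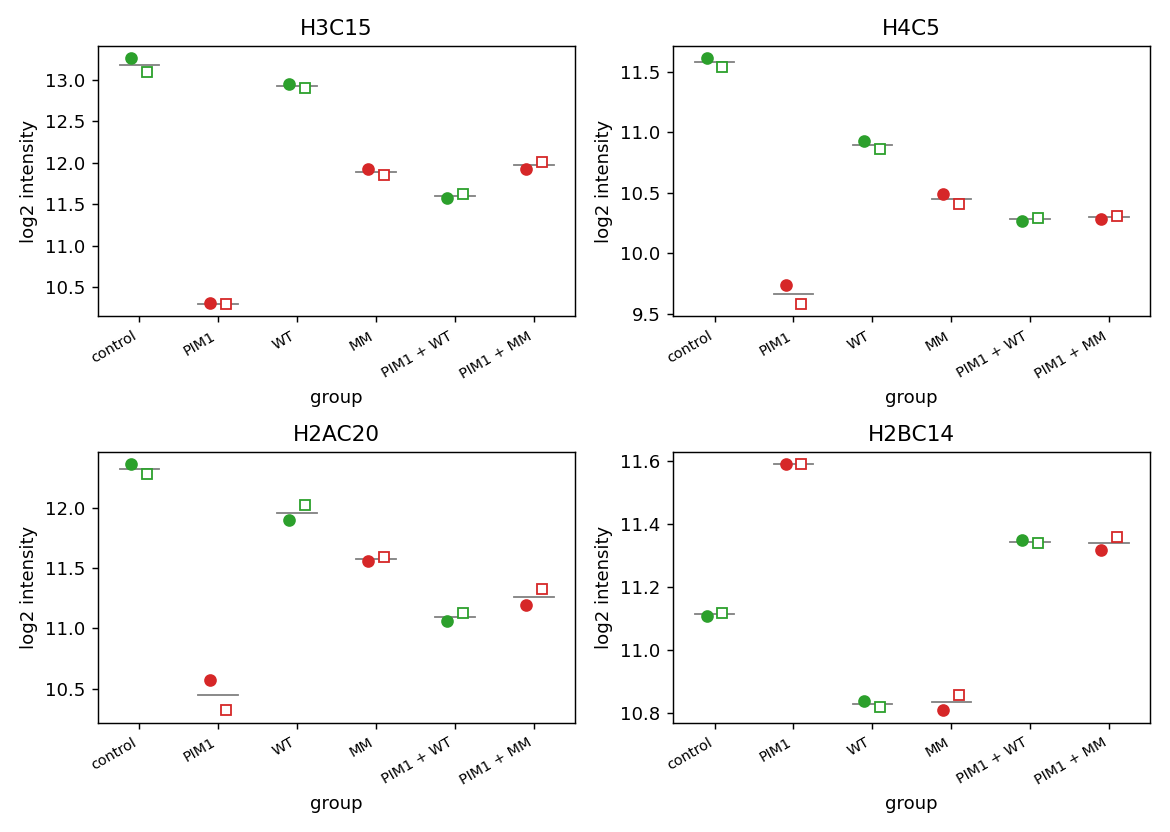
Log2 intensity (y) of H3C15, H4C5, H2AC20 and H2BC14 in each of the 6 groups (x), with Cy3 samples in green and Cy5 samples in red, replicate 1 filled, replicate 2 open and the group mean as a grey line. H3C15 lies above 12.8 in control and WT cells and at 10.3 in PIM1 cells, and H2BC14 is higher in the 3 groups with stable PIM1 than in those without.

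The promoter windows of the H3C15, H3C13, H2BC14 and H4C5 genes are given to show how H3C15, a gene for the same H3 protein, the H2B gene with the largest rise and the H4 gene with the largest decrease in PIM1 + WT relative to WT cells differ in sequence. They are RefSeq sequences of GRCh38.p14 from 250 bases before to 50 after the start of the gene, 5′ to 3′ on the gene's strand, with capitals for the octamer ATTTGCAT, the CCAAT box CCAAT and the TATA box TATAAA on either strand. H3C15 lies at chr1:149852358-149852657 on the plus strand, H3C13 at chr1:149813644-149813943 on the minus strand, H2BC14 at chr6:27814772-27815071 on the plus strand and H4C5 at chr6:26204360-26204659 on the plus strand.
H3C15: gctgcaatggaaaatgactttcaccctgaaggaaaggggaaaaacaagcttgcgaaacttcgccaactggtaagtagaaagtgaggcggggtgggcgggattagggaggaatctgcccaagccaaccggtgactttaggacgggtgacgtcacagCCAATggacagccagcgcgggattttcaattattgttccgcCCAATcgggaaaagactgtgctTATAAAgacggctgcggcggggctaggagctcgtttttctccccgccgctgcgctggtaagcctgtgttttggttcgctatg
H3C13: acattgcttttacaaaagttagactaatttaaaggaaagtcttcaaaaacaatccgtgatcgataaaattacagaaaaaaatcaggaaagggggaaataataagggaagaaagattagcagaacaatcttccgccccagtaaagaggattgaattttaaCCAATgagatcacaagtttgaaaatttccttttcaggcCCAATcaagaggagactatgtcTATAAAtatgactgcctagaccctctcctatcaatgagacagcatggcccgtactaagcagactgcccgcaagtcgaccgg
H2BC14: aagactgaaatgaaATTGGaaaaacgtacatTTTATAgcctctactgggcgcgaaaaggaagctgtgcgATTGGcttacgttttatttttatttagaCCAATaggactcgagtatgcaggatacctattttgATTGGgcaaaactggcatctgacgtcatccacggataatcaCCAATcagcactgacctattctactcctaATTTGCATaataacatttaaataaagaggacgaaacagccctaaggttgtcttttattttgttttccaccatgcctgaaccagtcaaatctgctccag
H4C5: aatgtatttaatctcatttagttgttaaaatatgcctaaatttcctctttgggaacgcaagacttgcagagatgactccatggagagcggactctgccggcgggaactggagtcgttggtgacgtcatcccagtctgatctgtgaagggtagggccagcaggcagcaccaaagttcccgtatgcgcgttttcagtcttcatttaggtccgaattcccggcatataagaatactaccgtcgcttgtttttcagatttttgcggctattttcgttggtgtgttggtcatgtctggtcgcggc

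H3C15 and H3C13 each held 2 CCAAT boxes and 1 TATA box and no octamer, H2BC14 held 5 CCAAT boxes, 1 TATA box and 1 octamer, and the H4C5 window held none of these letters. The window of H3C15 shared an unbroken run of 296 of its 300 bases with that of H3C14, which lies in the same cluster on the minus strand, and a longest run of 10 bases with that of H3C13. H3C13, H3C14 and H3C15 code for the same protein, H3C14 had no probe of its own, and the probe sequences were not used here, so that the H3C15 signal may include RNA of H3C14 and is uncertain in that respect. H3C13 did not follow H3C15 in PIM1 + WT relative to WT cells. Between PIM1 and control cells H3C15 differed by -2.94 and -2.8 in the replicates and H3C13 by -0.21 and -0.32. Its log2 intensity was between 13.94 and 14.27 in the 10 samples outside the array that stood apart, where it was 13.23 and 13.03, and PIM1 + WT cells differed from WT cells by -0.02 (adjusted p = 0.976, and 0.820 without that array).

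A promoter window was found for 59 of the 64 genes. The octamer, which the factor POU2F1 binds in H2B promoters, was in 14 of 18 H2B and 10 of 14 H2A windows, in H3C4 alone among 10 H3 windows and in none of the 12 H4 and 5 H1 windows, against 1.77% of all 35116 promoters of the table. H2A and H2B genes often lie head to head, so that their windows can overlap. The CCAAT box was in every H1, H2A, H2B and H3 window and in 3 of 12 H4 windows, against 34.6% of all promoters, and the TATA box was in 66.1% of the histone windows against 11.5%. TTTCC, the core letters of NFAT sites, were in 69.5% of the histone windows and 61.2% of all promoters. By class they were in 4 of 5 H1, 8 of 14 H2A, 10 of 18 H2B, 8 of 10 H3 and 11 of 12 H4 windows. Whether NFATC1 binds any of them was not tested. Within the H2B class, the 14 genes with the octamer had a median difference of 0.27 between PIM1 + WT and WT cells and the 4 without it 0.30, and between PIM1 + MM and MM cells the order turned, with 0.42 and 0.30. Within H2A it was -0.12 for the 10 genes with the octamer and 0.08 for the 4 without in the former, and 0.14 and 0.30 in the latter.

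Stable PIM1 was next compared under WT NFATC1, in samples outside the difference between PIM1 and control cells that led to the list. The fit took its spread from all 12 samples. The counts of H4 genes lower and H2B genes higher were added with the class pattern known. Between PIM1 + WT and WT cells, 22 of the 64 histone genes fell (34.4%, against 14.0% of all genes tested) and 14 rose (21.9%, against 13.3%), while 28 did not pass. H3C15, set apart in part by the WT minus MM difference and so by these WT samples, was among the 22. Without H3C15, 21 of 63 genes fell, and 3 of 11 in the H3 class. The H4 class fell in 11 of its 14 genes and rose in 0, with a median of -0.37, and the H2B class rose in 9 of 18 genes and fell in 1, with a median of 0.29. The H3 class fell in 4 of 12 genes and rose in 2, H2A fell in 4 of 15 and rose in 3, and H1 fell in 2 of 5. One of the 9 H2B genes that rose, H2BC1, was not well above background in any sample. After median centring, 1 of the 64 genes passed, the H4 median was -0.59 and the H2B median 0.13, where the median of all genes was 0.14, so that H2B then stood at -0.01 and H4 at -0.73 relative to all genes. Without WT replicate 1, 3 H2B genes rose, and without PIM1 + WT replicate 1 or 2, 5 and 4 did. The H4 count was between 9 and 11 without any 1 of the 4 samples.

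H4C5 and H4C3 had the largest decreases of the class. H4C5 was 10.93 and 10.86 in WT cells and 10.27 and 10.29 in PIM1 + WT cells, a decrease of 0.61 (standard error 0.069, adjusted p = 0.000214) or 1.53-fold. H4C3 was 16.88 and 16.77 in WT cells and 16.20 and 16.22 in PIM1 + WT cells (difference -0.61, adjusted p = 0.00115). The groups did not overlap in either gene, and in both the WT samples were the higher. H4C2 fell by 0.52 and H4C1 by 0.43. No H4 gene was above 0 in both replicates.

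H2AC20, an H2A gene of the HIST2 cluster, was 11.90 and 12.02 in WT cells and 11.06 and 11.13 in PIM1 + WT cells. It fell by 0.87 (standard error 0.0904, adjusted p = 0.000142), the largest decrease after H3C15. H2AC19, of the same cluster, moved the other way, from 9.84 and 9.81 in WT cells to 10.28 and 10.26 in PIM1 + WT cells (difference 0.45, adjusted p = 0.000806). Both differences were several times the gap between replicates. H2AC15, the H2A gene with the highest mean, differed by -0.12 (adjusted p = 0.334).

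H2BC14 was 10.84 and 10.82 in WT cells and 11.35 and 11.34 in PIM1 + WT cells, and rose by 0.51 (standard error 0.0512, adjusted p = 0.000112). H2BC10 rose by 0.47 and H2BC4 by 0.45. H2BC7 was the H2B gene that fell, from 8.27 and 8.27 in WT cells to 7.81 and 7.80 in PIM1 + WT cells (difference -0.46, adjusted p = 0.00715). H2BC9, the H2B gene with the highest mean, differed by 0.22 (adjusted p = 0.0643). In the H3 class, H3C2 fell by 0.70 (adjusted p = 0.00401) and H3C3 rose by 0.44 (adjusted p = 0.00238), so that genes for one protein class moved in both directions.

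Under MM NFATC1 the histone genes rose more often than they fell. Between PIM1 + MM and MM cells, 19 of the 64 genes rose (29.7%, against 10.0% of all genes tested) and 3 fell (4.69%, against 9.38%). Of the H2B class 10 of 18 rose and 0 fell, with a median of 0.35, and of H2A 6 of 15 rose and 2 fell. H4 had 1 gene in each direction among 14 and a median of 0.06 that turned to -0.03 after median centring, and H3C3 alone rose among 12 H3 genes, whose median of 0.09 turned to -0.02. The H2B genes that rose again included H2BC1, which was not well above background. After median centring 0 of the 64 passed with limma and the H2B median was 0.28, or 0.23 relative to all genes. Without MM replicate 2 or PIM1 + MM replicate 2, 13 genes passed, all of them higher, and without the latter 6 H2B genes rose. Without adjustment, 33 genes had a p below 0.05 among the 64, with 27 of them higher. The share of all genes at that level is not given here, so that nothing is read from this count.

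**Figure D3:**
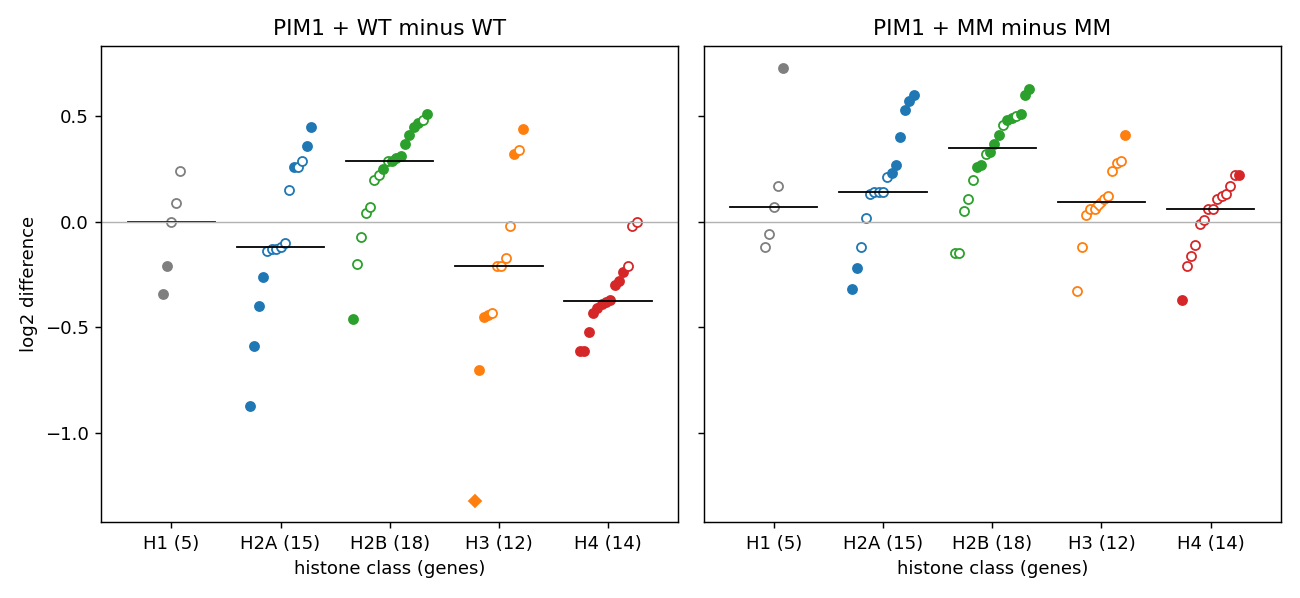
Log2 difference (y) of each of the 64 genes by histone class (x, with the number of genes) between PIM1 + WT and WT cells (left) and PIM1 + MM and MM cells (right), filled where the gene passed the test, with the class median as a black line and H3C15 as a diamond. The H4 median is -0.37 on the left and 0.06 on the right, and the H2B median is 0.29 and 0.35.

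H2BC14 rose in these cells by the same 0.51 (adjusted p = 0.00021), from 10.81 and 10.86 in MM cells to 11.32 and 11.36 in PIM1 + MM cells. H2BC4 had the largest rise of the H2B class, 0.63 (adjusted p = 0.00576), and H2AC19 that of H2A, 0.60 (adjusted p = 0.000273). H1-2, a linker histone, was 13.44 and 13.16 in MM cells and 14.17 and 13.90 in PIM1 + MM cells, and its rise of 0.73 (standard error 0.122, adjusted p = 0.00319) was the largest of the list. Its groups did not overlap, and in each of them replicate 1 was the higher.

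The 3 genes that fell were H4C3 by 0.37 (adjusted p = 0.0215), H2AC20 by 0.32 (adjusted p = 0.038) and H2AC13 by 0.22 (adjusted p = 0.0449). All 3 also fell under WT NFATC1, H2AC13 by 0.59 (adjusted p = 0.000183). H3C2 had the lowest value of the H3 class, -0.33 (adjusted p = 0.125), with PIM1 + MM samples at 10.14 and 9.64, of which the latter spot lies in the first 33 rows of the array, dim in that channel. H4C15 had the highest value of H4, 0.22 (adjusted p = 0.697), and passed without the array that stood apart (adjusted p = 0.0381).

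The difference between both stable PIM1 comparisons was tested as the interaction, in which a constant dye difference cancels. Of the 64 genes, 10 were lower (15.6%, against 0.482% of all genes tested) and 0 were higher (against 1.70%), and of the 63 genes other than H3C15, whose value draws on the difference that set it apart, 9 were lower, with a median of -0.26 over the histone genes and -0.02 over all genes. Of the 14 H4 genes 6 passed, with a class median of -0.42, and of the 18 H2B genes 0 passed, with a median of -0.10. Beside H3C15, the 9 genes were H4C11, H2AC17, H4C4, H3C7, H4C6, H4C1, H4C2, H4C9 and H1-4, with values between -0.57 and -0.38. The 9 genes lost the call with most single samples left out. The number called over all genes also changed with the sample left out, and nothing is read from it. The histone median stayed between -0.28 and -0.23 and H3C15 between -1.43 and -1.35 in these fits. After median centring 0 of the 64 passed with limma. WT and MM samples shared arrays, as did PIM1 + WT and PIM1 + MM samples. With the array as a random or a fixed block 26 and 21 genes passed, all lower. The shares over all genes with these blocks are not given here, so that nothing is read from these counts. Without adjustment, 30 genes had a p below 0.05, of which 29 were lower. The share of all genes at that level is not given here either, and nothing is read from it.

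**Figure D4:**
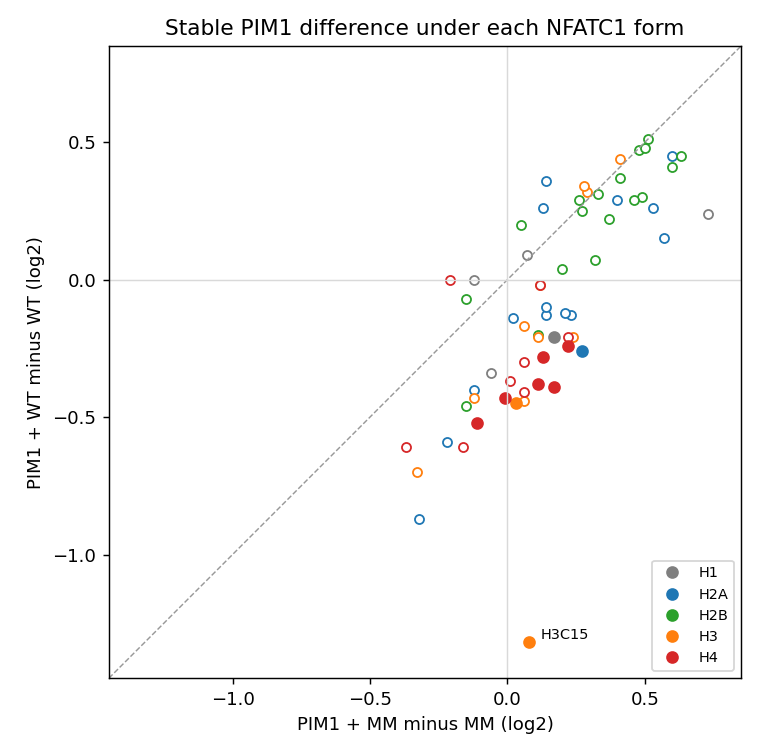
Log2 difference between PIM1 + WT and WT cells (y) against that between PIM1 + MM and MM cells (x) for the 64 histone genes, coloured by class, filled where the interaction passed. The dashed line marks equal differences. H3C15 lies farthest below it, at -1.32 and 0.08.

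H4C11 shows how small the single differences were beside those of H3C15. It was 11.61 and 11.67 in WT cells and 11.25 and 11.24 in PIM1 + WT cells, and 11.33 and 11.32 in MM cells and 11.48 and 11.52 in PIM1 + MM cells. It fell by 0.39 under WT NFATC1 and differed by 0.17 under MM NFATC1 (adjusted p = 0.148), with an interaction of -0.57 (standard error 0.107, adjusted p = 0.032). The groups did not overlap in either comparison.

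The 2 comparisons between the NFATC1 forms set Cy3 against Cy5, and cells whose signal at 1 NFATC1 probe was 7.77 and 7.97 (WT forms) against cells at 11.29 and 11.95 (MM forms), so that form, dye and this signal cannot be told apart. Without stable PIM1, 4 of the 63 genes other than H3C15 were higher in WT than in MM cells (against 0.559% of all genes tested) and 0 were lower (against 0.249%). H3C15 was set apart by this difference and is not counted. The 4 genes were H4C5 at 0.44, H3C7 at 0.40, H4C1 at 0.37 and H2AC17 at 0.34. An unadjusted p below 0.05 was found in 25 of the 64 genes, all of them higher. Its share over all genes is not given here, so that nothing is read from that count. Without any 1 of the 4 samples, 1 of the 64 passed. With the array as a block, 17 (random) or 10 (fixed) of the 64 passed, all higher, with the shares over all genes not given here. With stable PIM1, 9 genes were lower in PIM1 + WT cells relative to PIM1 + MM cells (14.1%, against 7.50%) and 2 were higher (3.12%, against 8.54%). The 4 H4 genes among the 9 were H4C8, H4C4, H4C13 and H4C2, at -0.28 to -0.23. The higher genes were H2AC6 at 0.36 and H2BC21 at 0.30. The 2 probes of H2AC6 gave 0.64 and 0.08, and those of H2BC21 0.24 and 0.36. Between 1 and 5 genes passed without any 1 sample, and 0 after median centring in either comparison, where the median of the 64 turned from -0.07 to 0.13 in the latter.

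Adding NFATC1 to the stable pools was compared within a dye. Both comparisons share samples with the one that led to the list and are given as a description. Between WT and control cells, 4 genes were lower (6.25%, against 0.148% of all genes tested) and 0 higher (against 0.0854%), namely H4C5 at -0.68, H3C4 at -0.60, H3C7 at -0.47 and H4C1 at -0.39. Without the array that stood apart, H4C5 alone passed, at -0.64 (adjusted p = 0.0331), and without any 1 of the 4 samples 0 or 1 gene did. Between PIM1 + MM and PIM1 cells, 25 genes were higher (39.1%, against 5.20%) and 3 lower (4.69%, against 7.16%), with 11 of the 14 H4 genes higher at a class median of 0.54 and H3C15 at 1.67. The class stood out by its low values in these same PIM1 samples, which in part fixes that direction, and nothing is read from these shares. Without the array that stood apart, 26 were higher and 1 was lower, and 21 of the 28 genes that had passed did so again. In a fit of these 2 groups alone, 1 gene passed.

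By gene cluster the classes were mixed. In PIM1 + WT relative to WT cells, where 14.0% of all genes tested fell and 13.3% rose, 20 of the 53 HIST1 genes fell and 12 rose, and of the 8 HIST2 genes 2 fell, H3C15 and H2AC20, and 2 rose, H2AC19 and H2BC18. Of the 2 HIST3 genes, H2AC25 and H2BC26, 0 passed there, and H2AC25 rose by 0.40 in PIM1 + MM relative to MM cells (adjusted p = 0.0336), with all 4 of these samples well above background. The H1 genes that are measured well are all in HIST1. H1-3 fell by 0.34 (adjusted p = 0.0057) and H1-4 by 0.21 (adjusted p = 0.0154) in PIM1 + WT relative to WT cells, while H1-2 differed by 0.24 (adjusted p = 0.192).

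The signal limits some members. In all 12 samples 54 of the 64 genes were well above background, and H1-1, H1-5, H2AC1, H2AC16, H2AC25, H2AC4, H2BC1, H2BC6, H4C7 and H4C16 were not. For 9 genes 2 probes were present, and between PIM1 + WT and WT cells they differed by at least 0.3 in 7 of these genes and had opposite signs in H2AC17 and H2BC21. For H2AC17, which passed the interaction, the probes gave 0.06 and -0.59 there. Histone genes of a class are close in sequence, and signal shared between members cannot be told apart with the probe sequences not used here.

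Genes that act on the same mRNAs and proteins were counted from written lists, whose counts stand beside 14.0% lower and 13.3% higher of all genes tested in PIM1 + WT relative to WT cells and 9.38% and 10.0% in PIM1 + MM relative to MM cells. Of 32 genes for transcription and 3′ end processing of histone mRNA, 13 fell and 2 rose in PIM1 + WT relative to WT cells (median -0.22), and 10 fell and 0 rose in PIM1 + MM relative to MM cells (median -0.23). NPAT was 7.41 and 7.43 in WT cells, 7.14 and 7.23 in PIM1 + WT cells (difference -0.24, adjusted p = 0.0815), 7.69 and 7.73 in MM cells and 7.21 and 7.15 in PIM1 + MM cells, where it fell by 0.52 (adjusted p = 0.00349). SLBP differed by -0.41 and -0.33 in these comparisons, with an adjusted p of 0.92 and 0.936 for the fit with all arrays and 0.00114 and 0.00493 without the array on which it was low. The U7 RNA gene RNU7-1 is named only. Of 18 genes for poly(A) addition and tail length, 8 fell and 2 rose under WT NFATC1 and 4 fell and 0 rose under MM NFATC1.

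Of 46 S phase and DNA replication genes 25 fell and 1 rose in PIM1 + WT relative to WT cells, and 29 fell and 0 rose in PIM1 + MM relative to MM cells, with medians of -0.39 and -0.34. The shares of all genes tested are those given for the lists. GINS4, a subunit of the replicative helicase, fell by 1.45 and 1.01 in these comparisons, and its loading partner CDC45 by 1.02 and 0.75. The clamp loader subunit RFC5 fell by 1.11 and 0.93, and the GINS subunit GINS1 by 0.86 and 1.15. The PIM1 + MM replicates of GINS1 lay far apart, at 10.65 and 9.76, against 11.45 and 11.26 in MM cells. In the interaction 1 of the 46 was lower (against 0.482% of all genes tested), GINS4 at -0.44 (adjusted p = 0.0426), and 0 were higher (against 1.70%).

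Of 23 histone chaperones, 8 fell and 2 rose under WT NFATC1 and 10 fell and 1 rose under MM NFATC1. Of all genes tested, 14.0% fell and 13.3% rose in the former, and 9.38% fell and 10.0% rose in the latter. HIRA, which deposits the replication-independent H3.3, was 11.19 and 11.31 in WT cells and 9.29 and 9.40 in PIM1 + WT cells (difference -1.90, adjusted p = 5.86e-06), and 11.21 and 11.18 in MM cells and 10.79 and 10.51 in PIM1 + MM cells (difference -0.55, adjusted p = 0.00639). Of 16 replication-independent histone variants, 5 fell and 4 rose under WT NFATC1 and 6 fell and 0 rose under MM NFATC1. Beside them stand the same shares of all genes tested as for the chaperones. The linker variant H1-10 was 9.84 and 9.75 in PIM1 + WT cells and 8.80 and 8.52 in PIM1 + MM cells, a difference of 1.14 (adjusted p = 0.000109).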

How the data were processed

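RNA of 12 PC-3 samples, 2 in each of 6 groups named by their labels, was labelled in 1 dye each and hybridized to 6 two-colour Agilent whole genome arrays on 2 slides. The authors deposited raw median intensity and processed signal per spot (Feature Extraction 11.0.1.1), and a table of log2 values that was checked to be quantile-normalized log2 median intensity, to a largest difference of 0.163. Each sample was read from its own dye. Outlier spots were removed. A probe was kept (31486 were) where 2 or more of the 12 samples exceeded the 90th percentile of 153 negative controls. No background was subtracted. Log2 values were quantile normalized between the 12 samples and the median taken per current symbol, through RefSeq transcripts and GRCh38.p14, which gave 26377 probes a symbol. A model with a mean for each group was fitted with limma 3.58.1 (R 4.3.3), with two-sided p-values adjusted by the Benjamini-Hochberg method over the 25748 genes within a comparison. The fit was tested on simulated data.

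The histone genes, the classes and the other gene lists were chosen with earlier results of these data known. Named are H3C15 and genes for its protein, every H1 gene, in each class the gene with the highest mean and those with the largest change in each direction in PIM1 + WT relative to WT and PIM1 + MM relative to MM cells with 1 sign in both replicates, members and list genes that passed with an absolute log2 difference of at least 1, SLBP, NPAT and RNU7-1, and H1-1, H1-5, H2BC6 and other dim members by name. Other genes are named as examples or where a small count was spelled out, chosen after their values were seen. Alternatives were other background corrections, normalizations, filters, probe summaries and blocks, and leaving out samples or an array. The number of arrays limits the precision. Replicate numbers gave correlations of the replicate difference from 0.0513 to 0.833 over 15 pairs of groups and were not used to pair samples. Some marker genes are not reported here.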

Additional observations from a re-analysis of the deposited data

Results flagged for a closer look

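The stable PIM1 difference under WT NFATC1 differed from that under MM NFATC1, by the interaction test, in 10 histone genes. It was -1.39 on the log2 scale in H3C15, -0.57 in H4C11, -0.54 in H2AC17, -0.49 in H4C4, -0.47 in H3C7, -0.46 in H4C6, -0.42 in H4C1, -0.41 in H4C2, -0.41 in H4C9 and -0.38 in H1-4. The value of H3C15 includes its WT minus MM difference, by which the gene was set apart, so that it is a description. In H3C15 the stable PIM1 difference was -1.32 under WT and 0.08 under MM NFATC1, and in the other 9 genes it was between -0.52 and -0.21 under WT and between -0.11 and 0.27 under MM NFATC1. Each group had 2 samples, so that single outlying samples were not looked for.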

How the results depend on the processing

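With median centring few calls were left, and the cause was not tested. It left 0 histone genes past the threshold in the interaction, PIM1 + WT minus PIM1 + MM, WT minus MM, PIM1 + MM minus MM, WT minus control and PIM1 + MM minus PIM1, and 1 in PIM1 + WT minus WT, with 0 H4 genes lower and 0 H2B genes higher there and 0 H2B genes higher in PIM1 + MM minus MM. Over all genes tested, 0 passed in the interaction with it and 495 in PIM1 + WT minus WT. The histone median of PIM1 + WT minus PIM1 + MM, -0.07, turned to 0.13 with it and to 0.00 with loess, and the H4 minus H2B difference of PIM1 + WT minus WT stayed between -0.73 and -0.65 over all alternatives that kept every sample.

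Normexp background correction gave 5 genes in the interaction. Loess gave 3 in PIM1 + WT minus PIM1 + MM and 3 in the interaction, and the processed signal 7 and 6, with 3 in WT minus MM. The filter in all 12 samples gave 14 in WT minus MM, 19 in the interaction and 15 in WT minus control. The array as a random block gave 17 in WT minus MM, 19 in PIM1 + WT minus PIM1 + MM and 26 in the interaction, and as a fixed block 10, 18 and 21. The shares over all genes with these blocks are not given here, and nothing is read from the counts. The fixed block could not be fitted for comparisons within a dye. A fit to the groups compared alone gave 1 in WT minus MM, 4 in PIM1 + WT minus PIM1 + MM, 0 in WT minus control and 1 in PIM1 + MM minus PIM1. Without the array with the first control and PIM1 replicates, 1 gene passed in WT minus control and 28 in PIM1 + MM minus MM.

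Leaving out 1 sample, which takes the lone sample left to be as variable as other groups, gave 1 in WT minus MM throughout, 1 to 5 in PIM1 + WT minus PIM1 + MM, 1 to 8 in the interaction, 24 to 31 in PIM1 + WT minus WT, 13 to 17 in PIM1 + MM minus MM, 0 to 1 in WT minus control and 20 to 26 in PIM1 + MM minus PIM1. H2B genes higher were 3 to 6 in PIM1 + WT minus WT and 6 to 10 in PIM1 + MM minus MM, and H4 genes lower 9 to 11. The number called over all genes in the interaction also changed with the sample left out, so that nothing is read from its leave-one-out counts. With the replicate block, 16 genes passed in PIM1 + WT minus PIM1 + MM in place of 11 and 12 in the interaction in place of 10, with no count moved by more than 1.5 times. Samples with the same replicate number share a slide, and a Cy3 and a Cy5 sample of the same number share an array within each of the pairs control and PIM1, WT and MM, and PIM1 + WT and PIM1 + MM.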
